A study of Mus musculus with 24 samples.

Results

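The nuclear genes of oxidative phosphorylation were described across the 6 groups of the study. The members were all genes of the count table whose symbol begins with Ndufa, Ndufb, Ndufc, Ndufs or Ndufv (the Ndufaf assembly factors aside), is Sdha, Sdhb, Sdhc or Sdhd, or begins with Uqcr, Cox4 to Cox8 or Atp5, with entries ending in -ps left out. The rule used names and no measured value, and it found 85 of the 24421 genes in the table. Of these, 36 were assigned to complex I, 4 to complex II, 8 to complex III, 20 to complex IV and 17 to complex V. Ndufa4 and its paralog Ndufa4l2 carry a complex I name but were placed with complex IV, where the NDUFA4 protein is now known to sit. A filter on low counts left 81 members for testing. Ndufs5, Cox4i2, Cox8b and Cox8c did not pass it, and Atp5s and Atp5sl entered by their prefix although they are not structural subunits of the ATP synthase. Cyc1, the cytochrome c1 subunit of complex III, has a name outside the rule and was not counted.

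The libraries came from MIN6, a mouse insulinoma line used as a model of the pancreatic beta cell. Cells of all groups carried a plasmid, either for GFP alone (control) or for EIF2A fused to GFP, and were then exposed to 1 µM thapsigargin for 1 or 3 h or to DMSO (0 h). Thapsigargin inhibits SERCA, the pump that fills the endoplasmic reticulum with calcium, and so sets off the unfolded protein response, and EIF2A is a protein with a reported part in translation initiation. Each of the 6 groups held 4 libraries of stranded polyA RNA, 24 in all. No DMSO group was labelled 1 or 3 h, so time in culture and thapsigargin cannot be told apart. Nothing states that the 4 libraries of a group came from separate cultures, so p-values measure only the spread between these libraries, which may be technical.

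Oxidative phosphorylation takes place in the inner mitochondrial membrane. Complex I (NADH dehydrogenase) and complex II (succinate dehydrogenase, also an enzyme of the tricarboxylic acid cycle) pass electrons to ubiquinone, complex III (the cytochrome bc1 complex) passes them on to cytochrome c, complex IV (cytochrome c oxidase) hands them to oxygen, and complex V (ATP synthase) uses the resulting proton gradient to make ATP. In beta cells the ATP made in this way closes potassium channels and so couples glucose metabolism to insulin release. Some subunits hold the redox centres or catalytic sites, while many others are small supernumerary proteins that stabilise or assemble the complexes. The subunits encoded by mitochondrial DNA were not analysed here.

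Promoter sequences are shown for 4 members that the results turn on: Uqcrh, Ndufa4 and Cox6b1, which had the lowest called log2 fold changes of complexes III and IV, and, for contrast, Sdha, which rose. Each is the 250 bases before the RefSeq start, 5′ to 3′ on the gene's own strand, which is the minus strand of GRCm38.p6 in all 4 cases: chr6:11907451-11907700 for Ndufa4, chr4:116075071-116075320 for Uqcrh, chr7:30626115-30626364 for Cox6b1 and chr13:74350241-74350490 for Sdha. Capitals mark a match to CCGGAAG, the core of the element bound by GABPA (NRF-2) and other ETS factors, on either strand.
Ndufa4: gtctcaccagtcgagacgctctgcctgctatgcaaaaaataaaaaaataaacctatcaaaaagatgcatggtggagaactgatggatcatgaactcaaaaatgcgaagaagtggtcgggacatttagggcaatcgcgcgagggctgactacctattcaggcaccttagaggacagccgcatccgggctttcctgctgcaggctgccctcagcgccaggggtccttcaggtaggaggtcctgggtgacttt
Uqcrh: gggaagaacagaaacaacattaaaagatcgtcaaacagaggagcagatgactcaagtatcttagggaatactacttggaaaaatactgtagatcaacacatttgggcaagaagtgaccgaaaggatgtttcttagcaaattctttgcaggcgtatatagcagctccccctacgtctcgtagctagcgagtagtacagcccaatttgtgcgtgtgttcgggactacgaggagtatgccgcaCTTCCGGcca
Cox6b1: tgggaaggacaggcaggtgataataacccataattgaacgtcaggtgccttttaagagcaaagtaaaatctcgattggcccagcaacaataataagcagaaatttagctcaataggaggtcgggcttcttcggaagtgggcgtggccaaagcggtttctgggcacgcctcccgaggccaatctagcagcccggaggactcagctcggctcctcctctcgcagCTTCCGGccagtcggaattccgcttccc
Sdha: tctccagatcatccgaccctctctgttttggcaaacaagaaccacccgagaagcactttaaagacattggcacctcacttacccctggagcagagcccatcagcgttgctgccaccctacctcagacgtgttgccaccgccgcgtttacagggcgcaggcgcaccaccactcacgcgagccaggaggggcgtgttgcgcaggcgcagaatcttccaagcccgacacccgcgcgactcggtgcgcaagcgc
The match lies 10 bases before the start in Uqcrh and 28 bases before it in Cox6b1, and these letters do not occur in the 250 bases shown for Ndufa4 or Sdha. RefSeq windows (250 bases before to 50 after the start) were matched for 70 members, as 76 windows. CCGGAAG was found on either strand in 21.1% of the members' windows and in 8.86% of all 32851 windows. The NRF1 element, GCGCA followed directly by its reverse complement TGCGC, was found in 6.6% and 0.97%, and the YY1 word AAGATGG in 17.1% and 6.34%. TGATGCAA, an element bound by ATF4 and its partners in the stress response, was found in 0.0% of the members' windows and in 0.89% of all windows. Among members tested and matched to a window, CCGGAAG was present in 14 of the 47 that fell with GFP after 3 h, in 2 of the 20 that did not pass the test and in 0 of the 1 that rose. The YY1 word was present in 8 of the 47, 4 of the 20 and 0 of the 1. The NRF1 element was present in 4 of the 47, 1 of the 20 and 0 of the 1. A difference between these classes was not tested for any of the motifs. A match describes letters and not a bound site.

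The labels were checked first on Eif2a itself. In the libraries labelled GFP it stood at 77.8 to 101.8 CPM (counts relative to the library total, scaled here with edgeR's TMM factors) in replicates 2 to 4 but at 269.3, 361.1 and 358.0 CPM in replicate 1 at 0, 1 and 3 h. In the libraries labelled EIF2A it stood at 134.0 to 208.8 CPM in replicates 2 to 4 and at 80.2, 96.9 and 104.2 CPM in replicate 1. The libraries of replicate 1 thus went against their labels. Groups were kept as labelled, and counts of members are given with all 24 libraries and again without replicate 1 of each group. Pairs of libraries were compared by chi-square over its degrees of freedom, which is near 1 for counting noise alone. In GFP at 0 h pairs among replicates 2 to 4 gave 1.32 to 1.96. Pairs with replicate 1 gave 69.3 to 74.7. Some pairs among replicates 2 to 4 were higher in other groups, as with 16.7 for EIF2A replicates 3 and 4 at 3 h. SEs and calls without replicate 1 rest on the spread between replicates 2 to 4, which may be technical. Ddit3, a stress gene, rose on average from 63.5 to 143.3 and 258.9 CPM with GFP and from 103.1 to 223.0 and 335.4 CPM with EIF2A. Total counts per library were 10.52 M to 22.22 M. All 9 beta cell markers listed were detected, and their summed level went from 84545.6 to 110357.1 CPM at 0 h to 44556.5 to 65935.1 CPM at 3 h with GFP and from 95112.7 to 115578.2 CPM to 56374.6 to 66725.7 CPM with EIF2A. At 3 h 4 of the 9 were called lower in each construct, with medians of -0.61 and -0.56. Their part in the members' fall was not tested. Of 19 markers of other pancreatic, mesenchymal, endothelial and blood cells, 1 was at 0 everywhere and their sum was 142.4 to 928.9 CPM. Most of this sum was Gcg, at 138.3 to 920.7 CPM. With EIF2A at 0 h Gcg stood at 903.9 CPM in replicate 1 and at 225.9 to 240.6 CPM in replicates 2 to 4. With GFP at 0 h it stood at 271.9 CPM and at 690.2 to 734.1 CPM.

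Per kilobase of transcript the most abundant members at 0 h with GFP were Cox6c at 897.9 ± 31.0 CPM per kb and Cox8a at 874.9 ± 64.9 CPM per kb (SD, n = 4), both small subunits of complex IV. Uqcrq of complex III followed at 699.3 ± 40.9 and Cox4i1 of complex IV at 677.7 ± 15.1 CPM per kb. The 2 complex IV genes at the top differed by less than their spread, as did the next pair. At the other end, Ndufs5, an accessory subunit of complex I, averaged 0.0234 CPM in the same group. Of its 50-base stretches, 41.2% also occur in another gene, BC002163, and the part of this in its low level was not tested.

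After 3 h of thapsigargin most members were lower, in both sets of libraries. With GFP, 52 of the 81 tested members fell and 4 rose (edgeR's quasi-likelihood test, Benjamini-Hochberg adjusted p under 0.05 over all 13761 genes tested), where 14.6% of all genes tested fell and 18.4% rose. The median log2 fold change of the members was -0.50, against -0.00 for all genes tested. With EIF2A, 51 fell and 7 rose, where 16.6% of all genes tested fell and 19.6% rose, and the medians were -0.43 and -0.01. The 2 constructs have separate controls: 47 members fell in both, which is 47 of 52 and 47 of 51, and 4 rose in both, namely Sdha, Ndufs1, Uqcrc2 and Ndufa4l2. No member rose in one and fell in the other. Without GFP replicate 2 or replicate 4 at 0 h, 2 rather than 4 members rose with GFP. In 57 members with GFP and 38 with EIF2A, all 4 libraries at 3 h lay below all 4 at 0 h, where this held for 18.4% and 12.8% of all genes tested. Without replicate 1, 66 members fell and 5 rose with GFP (30.8% and 32.2% of genes tested), 59 fell and 13 rose with EIF2A (31.4% and 31.2%), and members that fell with GFP and rose with EIF2A included Ndufv2 and Ndufa9 of complex I. With the replicate number as a block, 67 fell and 7 rose with GFP (33.5% and 33.6% of genes tested), and 61 fell and 10 rose with EIF2A (33.3% and 32.9%).

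**Figure D1:**
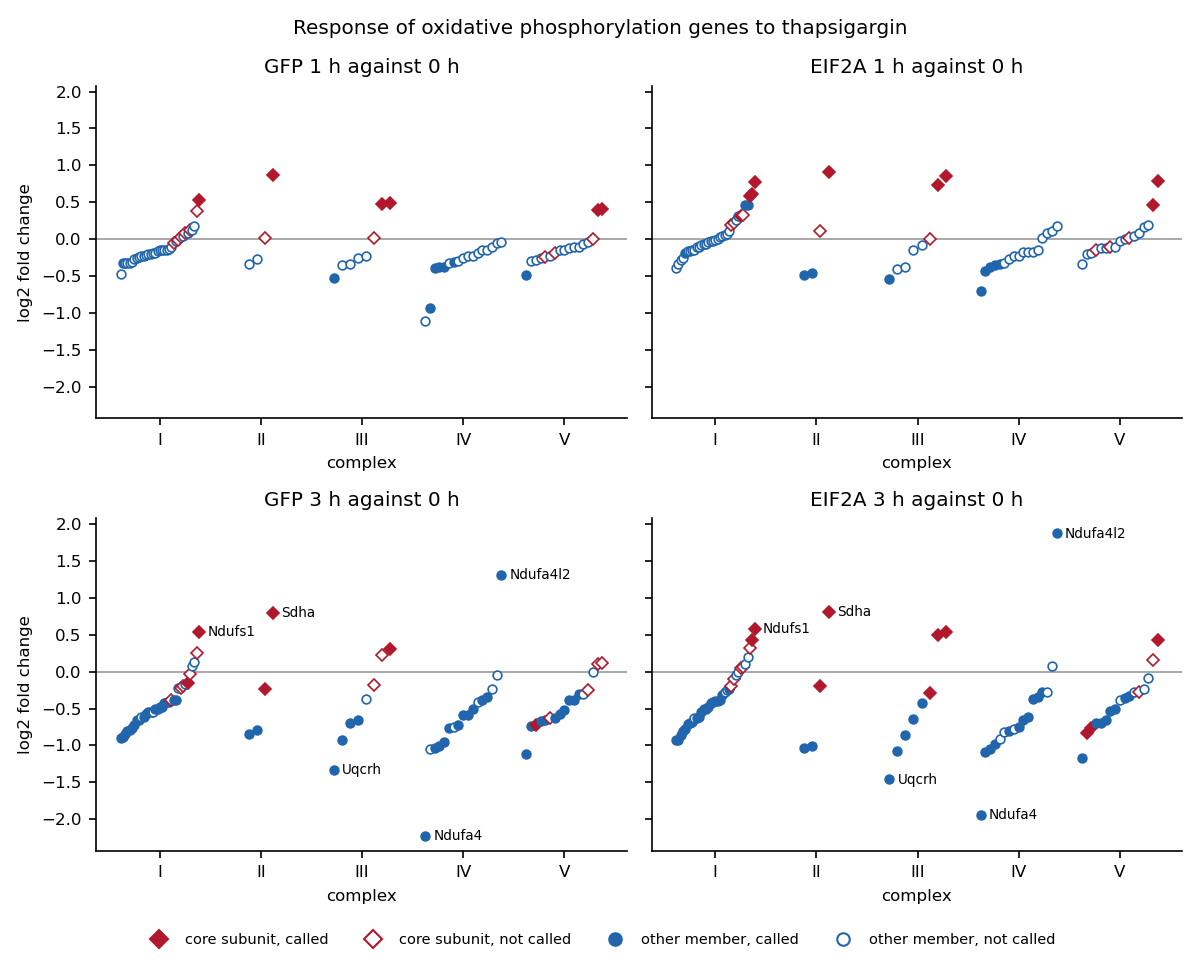
Log2 fold change of each tested member (vertical axis) by complex I to V (horizontal axis, members ordered by value within a complex), for thapsigargin at 1 h (top) and 3 h (bottom) against 0 h, with GFP (left) and EIF2A (right), from all 24 libraries. Diamonds are the 17 core subunits and circles all other members, filled where adjusted p is under 0.05; at 3 h most circles lie below 0, while Sdha, Ndufs1 and Ndufa4l2 lie above it in both constructs.

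The fall after 3 h ran through all 5 complexes. With GFP it was called in 23 of 35 tested members of complex I (median log2 fold change -0.48), 3 of 4 of complex II, 4 of 8 of complex III (-0.51), 11 of 17 of complex IV (-0.59) and 11 of 17 of complex V (-0.52). With EIF2A it was called in 21 (-0.40), 3 (-0.60), 6 (-0.53), 11 (-0.75) and 10 members (-0.39) of the same complexes. The members were next separated by role. The 17 core subunits were taken as the conserved subunits of the NADH and quinone modules of complex I, Sdha and Sdhb of complex II, the Rieske protein and both core proteins of complex III, and the head and central stalk of complex V. Not every subunit in this set holds a redox centre or catalytic site, and both core proteins of complex III do not. The nuclear-encoded subunits of complex IV were all counted with the others. Of the 17, 3 fell and 3 rose with GFP (median -0.15), and 4 fell and 6 rose with EIF2A (0.06). Of the other 64 tested members, 49 fell and 1 rose with GFP (median -0.58), and 47 fell and 1 rose with EIF2A (-0.59). Without replicate 1, the core subunits numbered 8 lower and 4 higher with GFP, and 5 lower and 10 higher with EIF2A, and the others 58 lower and 1 higher with GFP, and 54 lower and 3 higher with EIF2A. Of all genes tested, 14.6% fell and 18.4% rose with GFP in all libraries, and 30.8% and 32.2% without replicate 1. With EIF2A the shares were 16.6% and 19.6%, and 31.4% and 31.2% without replicate 1. The difference between core and other members was not tested.

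In complex I the 3 core subunits of the NADH module take electrons from NADH. Ndufs1, its large iron-sulfur subunit, stood at 88.1, 89.5, 87.5 and 89.6 CPM in GFP replicates 1 to 4 at 0 h and at 122.8, 138.7, 132.5 and 120.7 CPM at 3 h. With EIF2A it stood at 89.8, 62.0, 63.7 and 61.8 CPM at 0 h and at 130.5, 100.1, 100.4 and 83.9 CPM at 3 h. All GFP libraries at 3 h were above those at 0 h, whereas with EIF2A replicate 4 at 3 h lay below replicate 1 at 0 h. The log2 fold change was 0.54 ± 0.14 (SE, adjusted p = 0.00393) with GFP and 0.58 ± 0.14 (adjusted p = 0.00203) with EIF2A. An antisense transcript, Ino80dos, overlaps 489 exonic bases of Ndufs1, and without a stated strand setting in counting the reads of the pair cannot be told apart. Ndufv1, which binds NADH, rose with EIF2A (0.43 ± 0.17, adjusted p = 0.0474) and measured 0.25 ± 0.17 with GFP, which did not pass the test. Ndufv2, its iron-sulfur partner, fell with GFP by 0.15 on the log2 scale and measured 0.05 with EIF2A. None of the 4 core subunits of the quinone module was called at 3 h in either construct with all libraries.

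Among the 28 tested accessory subunits of complex I, 22 fell with GFP and 21 with EIF2A, and none rose. Ndufb3, an accessory subunit of the membrane arm, stood at 122.6, 119.0, 123.6 and 117.5 CPM with GFP at 0 h and at 76.6, 63.5, 70.2 and 56.8 CPM at 3 h. With EIF2A it went from 126.4, 124.5, 139.7 and 115.8 CPM to 79.1, 66.6, 64.9 and 54.5 CPM. The groups did not overlap, and the log2 fold changes were -0.85 ± 0.10 (adjusted p = 2.56e-06) and -0.93 ± 0.10 (adjusted p = 7.00e-07). Ndufb7, also of the membrane arm, went from 173.4, 160.0, 162.7 and 160.5 to 97.0, 83.3, 84.3 and 93.2 CPM with GFP (-0.88 ± 0.20, adjusted p = 0.00188). With EIF2A its levels were 168.2, 237.4, 277.7 and 301.5 CPM at 0 h and 100.7, 130.8, 128.5 and 181.9 CPM at 3 h (-0.86 ± 0.20, adjusted p = 0.00193). Replicate 4 at 3 h then lay above replicate 1 at 0 h, and replicate 1 was the lowest library at both times. Ndufb4 was scarce, at 10.9 to 14.4 CPM with GFP at 0 h and 6.30 to 7.63 CPM at 3 h, and 37.0% of its 50-base stretches occur in other genes. Its log2 fold changes were -0.90 ± 0.17 with GFP and -0.78 ± 0.17 with EIF2A.

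Complex II has 4 subunits, all encoded in the nucleus, and they moved in different directions. Sdha, the flavoprotein that oxidises succinate, stood at 150.8, 140.7, 135.0 and 140.9 CPM with GFP at 0 h, at 262.4, 253.6, 261.3 and 260.3 CPM at 1 h and at 270.3, 234.2, 240.6 and 237.1 CPM at 3 h. With EIF2A the libraries read 140.3, 144.3, 139.7 and 130.3 CPM at 0 h, then 206.4, 283.7, 288.1 and 267.9 CPM at 1 h and 219.0, 257.7, 252.7 and 244.1 CPM at 3 h. All treated libraries lay above all 0 h libraries. Sdha rose by a log2 fold change of 0.87 ± 0.09 at 1 h (adjusted p = 3.13e-06) and 0.79 ± 0.09 at 3 h (adjusted p = 5.84e-07) with GFP. With EIF2A the values were 0.91 ± 0.09 (adjusted p = 1.37e-06) and 0.81 ± 0.09 (adjusted p = 3.43e-07). Among the 10908 genes averaging 5 CPM or more, Sdha ranked 88th from the highest at 1 h and 633rd at 3 h with GFP.

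Sdhb, the iron-sulfur subunit that receives the electrons from Sdha, changed little. It stood at 113.2, 110.9, 110.9 and 109.6 CPM with GFP at 0 h and 92.9, 96.2, 93.7 and 95.1 CPM at 3 h (-0.23 ± 0.07, adjusted p = 0.018). With EIF2A it read 117.7, 121.9, 131.4 and 141.1 CPM at 0 h and 108.7, 106.4, 109.8 and 122.2 CPM at 3 h, with overlap between the groups (-0.20 ± 0.07, adjusted p = 0.0438). The call with EIF2A was lost when any 1 of 5 libraries was left out (replicate 3 or 4 at 0 h, or replicate 1, 2 or 3 at 3 h), with adjusted p of 0.0781 to 0.162. Sdhc and Sdhd, the membrane anchors that bind ubiquinone and haem, both fell. Sdhc went from 194.8, 172.5, 175.7 and 173.7 to 124.4, 94.0, 98.8 and 97.9 CPM with GFP (-0.79 ± 0.10, adjusted p = 3.17e-06). With EIF2A it went from 186.5, 219.6, 234.6 and 243.8 to 123.7, 101.0, 98.9 and 106.9 CPM (-1.04 ± 0.10, adjusted p = 9.32e-08). Sdhd went from 243.5, 188.2, 188.0 and 193.0 to 143.9, 103.2, 101.3 and 101.9 CPM with GFP (-0.85 ± 0.13, adjusted p = 3.7e-05). With EIF2A it went from 221.5, 218.9, 217.7 and 225.5 to 133.1, 104.4, 101.7 and 99.4 CPM (-1.01 ± 0.13, adjusted p = 4.49e-06). Neither anchor overlapped between 0 and 3 h in either construct, and replicate 1 was the highest library of Sdhd in 5 of the 6 groups.

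**Figure D2:**
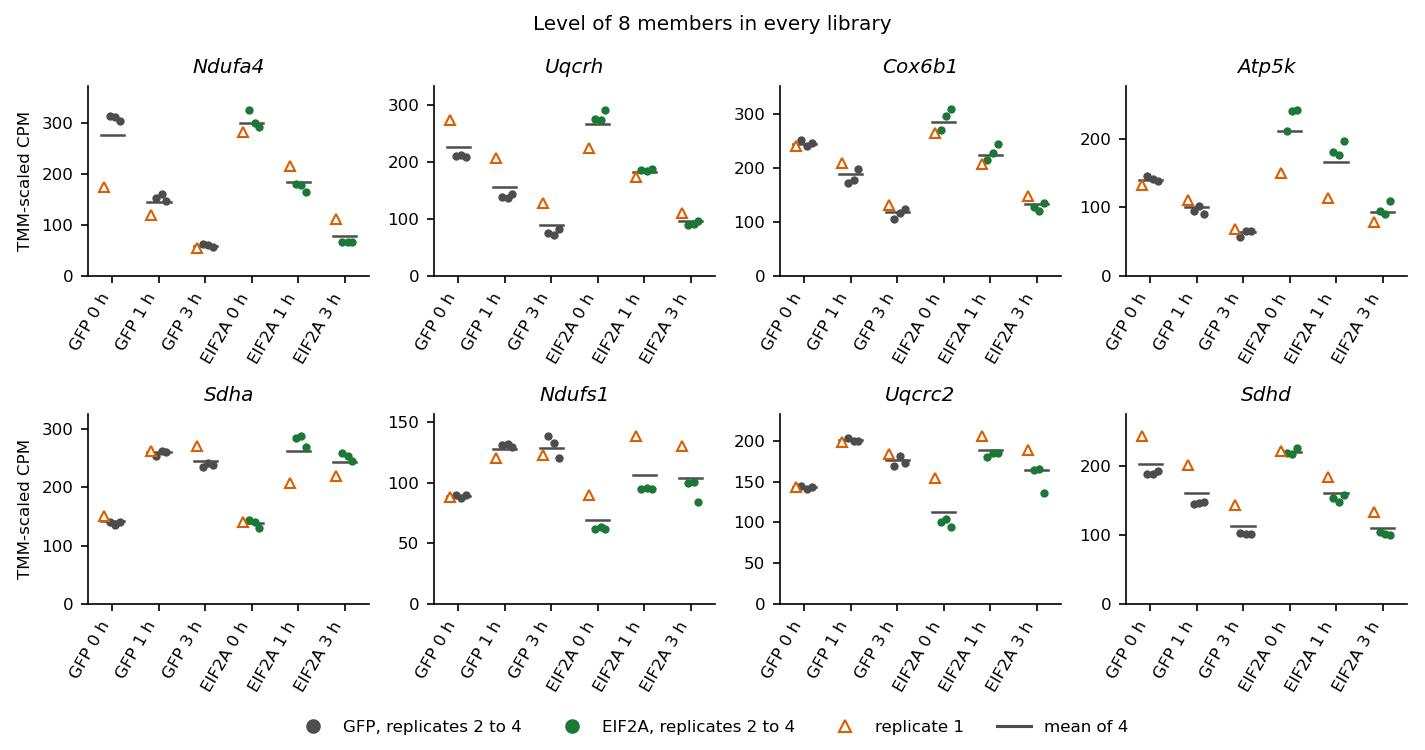
TMM-scaled CPM (vertical axis, from 0) of 8 members in all 24 libraries by group (horizontal axis), with open triangles for replicate 1, filled circles for replicates 2 to 4 (grey GFP, green EIF2A) and bars for the mean of 4. Ndufa4 drops in every replicate from 0 to 3 h and Sdha rises in every replicate, while replicate 1 stands apart from replicates 2 to 4 in several groups, for example at 173.7 CPM for Ndufa4 in GFP 0 h.

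In complex III all 5 accessory subunits fell with EIF2A and 4 of 5 with GFP, with medians of -0.86 and -0.70. Uqcrh, the hinge protein beside cytochrome c1, led them. It stood at 273.6, 210.1, 213.4 and 209.5 CPM with GFP at 0 h, at 206.8, 139.8, 137.7 and 144.6 CPM at 1 h and at 129.1, 76.3, 73.1 and 82.1 CPM at 3 h. With EIF2A it read 224.5, 276.4, 274.6 and 292.3 CPM, then 174.4, 186.0, 184.9 and 187.7 CPM, then 110.2, 89.3, 91.0 and 97.5 CPM. At 3 h no library reached the 0 h range in either construct. The log2 fold changes at 3 h were -1.33 ± 0.16 (adjusted p = 2.06e-06) and -1.46 ± 0.16 (adjusted p = 5.47e-07). Uqcr11 went from 143.9, 131.4, 137.2 and 138.4 to 75.5, 64.1, 68.0 and 80.5 CPM with GFP (-0.93 ± 0.18, adjusted p = 3.26e-04) and fell with EIF2A by 1.07 on the log2 scale (adjusted p = 7.05e-05). Uqcrb went from 151.6, 138.8, 126.5 and 121.4 to 103.8, 82.0, 74.6 and 71.0 CPM with GFP (-0.70 ± 0.13, adjusted p = 2.01e-04), and 43.2% of its 50-base stretches occur in other genes.

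The 3 core subunits of complex III did not move together. Uqcrc2, core protein 2, stood at 143.9, 144.7, 140.6 and 143.0 CPM with GFP at 0 h, at 198.7 to 203.7 CPM at 1 h and at 184.1, 169.3, 181.8 and 173.1 CPM at 3 h. With EIF2A replicates 2 to 4 went from 94.0 to 103.8 CPM at 0 h up to 180.7 to 185.5 CPM at 1 h and 136.7 to 165.6 CPM at 3 h, and replicate 1 read 154.8, 206.5 and 189.4 CPM. At 3 h the log2 fold changes were 0.31 ± 0.11 (adjusted p = 0.0434) with GFP and 0.53 ± 0.12 (adjusted p = 9.73e-04) with EIF2A. The GFP call was lost when any 1 of the 8 libraries compared was left out (adjusted p = 0.0595 to 0.0939). Uqcrc2 shares 504 exonic bases with Pdzd9 on the other strand. Uqcrc1, core protein 1, rose with EIF2A (0.49 ± 0.15, adjusted p = 0.0119) and measured 0.22 ± 0.15 with GFP. The Rieske protein gene Uqcrfs1 fell with EIF2A by 0.29 on the log2 scale and measured -0.18 with GFP, which did not pass the test.

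All 11 ubiquitous subunits of complex IV fell at 3 h in both constructs, with medians of -0.72 and -0.75. Ndufa4 had the largest change of all tested members at 3 h. It stood at 173.7, 313.9, 310.8 and 303.9 CPM with GFP at 0 h, at 119.1, 152.6, 160.4 and 147.5 CPM at 1 h and at 54.6, 62.6, 61.1 and 57.9 CPM at 3 h. With EIF2A it read 282.7, 324.5, 298.7 and 292.6 CPM, then 216.2, 180.9, 177.7 and 164.9 CPM, then 111.5, 66.9, 67.4 and 66.5 CPM. No treated library reached the range of its 0 h group. The log2 fold change was -0.93 ± 0.17 at 1 h (adjusted p = 0.00186) and -2.22 ± 0.18 at 3 h (adjusted p = 1.28e-08) with GFP. With EIF2A it was -0.70 ± 0.17 (adjusted p = 0.0112) and -1.94 ± 0.18 (adjusted p = 5.15e-08). Without replicate 1 the 3 h values were -2.35 ± 0.05 and -2.19 ± 0.06. Among the 10908 genes averaging 5 CPM or more, Ndufa4 had the lowest log2 fold change at 1 h with GFP and the 2nd lowest at 3 h in both constructs.

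Both paralogs of Ndufa4 were scarce. Ndufa4l2, which is known from hypoxia, stood at 1.34, 0.535, 0.688 and 0.644 CPM with GFP at 0 h and at 2.67, 1.99, 1.15 and 2.09 CPM at 3 h, with overlap. With EIF2A it read 0.793, 1.58, 0.954 and 1.24 CPM at 0 h and 1.71, 5.10, 4.45 and 5.45 CPM at 3 h, with no overlap. The log2 fold changes were 1.31 ± 0.41 (adjusted p = 0.0175) and 1.87 ± 0.41 (adjusted p = 0.00118), and the GFP call was lost without replicate 2 or replicate 4 of GFP at 0 h (adjusted p = 0.0600 and 0.0520). Ndufa4l2 had 8 to 91 counts per library and shares 32 exonic bases with Shmt2 on the other strand. AA467197, the paralog outside the rule, went from 0.624 to 1.07 CPM at 0 h to 0.372 to 0.653 CPM at 3 h with GFP, which was not called (adjusted p = 0.121). With EIF2A it fell from 0.430 to 1.03 CPM to 0.120 to 0.457 CPM (adjusted p = 0.00706), on 2 to 15 counts per library.

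Cox6b1, a subunit on the side of the enzyme that meets cytochrome c, went from 241.2, 252.2, 240.4 and 246.8 to 132.4, 105.9, 116.8 and 123.5 CPM with GFP (-1.03 ± 0.09, adjusted p = 1.85e-08). With EIF2A it went from 264.5, 269.8, 295.2 and 309.4 to 148.8, 128.0, 121.2 and 135.2 CPM (-1.09 ± 0.09, adjusted p = 8.69e-09). Cox7b, a small membrane subunit, went from 133.5, 153.3, 149.3 and 153.0 to 72.5, 73.9, 74.8 and 71.1 CPM with GFP (-1.01 ± 0.09, adjusted p = 4.69e-08). Its libraries, like those of Cox6b1, separated fully between 0 and 3 h in both constructs. With GFP the smallest called change in the complex was that of Cox5a, from 251.6, 232.3, 235.5 and 224.2 to 190.3, 189.6, 184.0 and 179.9 CPM (-0.34 ± 0.07, adjusted p = 7.25e-04). Of the 5 tested tissue isoforms (Cox6a2, Cox6b2, Cox7a1, Cox7b2 and Ndufa4l2), Ndufa4l2 alone was called at 3 h with all libraries. Cox7a2l, which helps to join complexes III and IV into supercomplexes, did not pass the test in any of these 4 comparisons.

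In complex V the calls lay mostly outside the catalytic head and central stalk. There 1 of 5 subunits was called lower with GFP at 3 h, and with EIF2A 2 fell and 1 rose. With GFP 3 of the 5 had a log2 fold change below 0. Atp5d, not called, had all libraries at 3 h (151.8 to 239.9 CPM) below all at 0 h (254.5 to 351.5 CPM). Atp5c1, also not called, went from 201.8 to 207.6 CPM in replicates 2 to 4 to 162.1 to 181.9 CPM. In replicate 1 it went from 273.8 to 230.0 CPM. All 4 subunits of the peripheral stalk, all 3 genes of the c ring and all 3 membrane supernumerary subunits fell with GFP at 3 h, and 3, 3 and 2 of them with EIF2A. Atp5k, the supernumerary subunit e, stood at 133.1, 144.9, 141.5 and 138.0 CPM with GFP at 0 h and at 68.5, 56.9, 65.5 and 65.3 CPM at 3 h (-1.12 ± 0.15, adjusted p = 7.53e-06). With EIF2A it went from 149.7, 211.1, 239.4 and 241.9 to 78.4, 94.5, 90.6 and 109.3 CPM (-1.17 ± 0.15, adjusted p = 3.67e-06). The groups did not overlap. Atp5j2, subunit f, went from 301.9, 296.2, 293.1 and 269.1 to 191.6, 156.2, 172.1 and 176.7 CPM with GFP (-0.74 ± 0.15, adjusted p = 8.25e-04). Atp5f1, subunit b of the stalk, went from 319.6, 325.9, 330.7 and 336.9 to 261.9, 267.4, 256.9 and 276.7 CPM (-0.30 ± 0.05, adjusted p = 1.52e-04), and it shares 337 exonic bases with Wdr77 on the other strand.

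The 3 c ring genes encode the same mature protein with different targeting sequences. Atp5g3 was the most counted, at 519.6, 409.4, 415.0 and 397.1 CPM with GFP at 0 h and 378.0, 261.5, 267.5 and 262.1 CPM at 3 h (-0.57 ± 0.12, adjusted p = 0.00112). Atp5g1 went from 132.5, 139.6, 143.3 and 145.0 to 85.6, 90.9, 89.1 and 95.1 CPM (-0.63 ± 0.11, adjusted p = 2.04e-04). Atp5g2 went from 35.6, 42.3, 41.7 and 41.2 to 30.3, 29.2, 28.5 and 34.6 CPM (-0.39 ± 0.12, adjusted p = 0.0134). All 3 separated between the groups. Of the 50-base stretches of Atp5g1 and Atp5g2, 66.0% and 100.0% occur in other genes, so both levels are uncertain. With EIF2A the 3 genes fell by 0.53, 0.66 and 0.33 on the log2 scale in the same order, and the last call (adjusted p = 0.0328) was lost without EIF2A replicate 3 or 4 at 0 h or replicate 1, 2 or 3 at 3 h (adjusted p = 0.0550 to 0.132).

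Among the head subunits, Atp5b, the catalytic beta subunit, stood at 1053.2, 1145.4, 1155.4 and 1159.2 CPM with GFP at 0 h, at 1399.3, 1499.9, 1504.4 and 1582.0 CPM at 1 h and at 1161.6, 1145.6, 1225.3 and 1294.8 CPM at 3 h. With EIF2A it read 1125.9, 860.0, 855.8 and 887.8 CPM, then 1411.6, 1665.9, 1642.3 and 1750.0 CPM, then 1202.7, 1234.0, 1225.7 and 1375.3 CPM. It was thus above the whole 0 h range at 1 h in both constructs and at 3 h with EIF2A. The log2 fold changes with GFP were 0.41 ± 0.09 at 1 h (adjusted p = 0.00711) and 0.10 ± 0.09 at 3 h (adjusted p = 0.452). With EIF2A they were 0.79 ± 0.09 (adjusted p = 1.27e-05) and 0.43 ± 0.09 (adjusted p = 6.70e-04). Atp5a1, the alpha subunit, rose at 1 h by 0.39 ± 0.09 with GFP and 0.47 ± 0.09 with EIF2A and was not called at 3 h. Atp5e, the small epsilon subunit of the central stalk, fell at 3 h from 284.2, 248.2, 253.0 and 250.3 to 177.4, 134.2, 151.2 and 167.7 CPM with GFP (-0.72 ± 0.24, adjusted p = 0.0258). That call was lost without replicate 1 of GFP at 0 h or without replicate 2 or 3 of GFP at 3 h (adjusted p = 0.0577 to 0.0789).

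At 1 h fewer members were called and both directions occurred. With GFP, 8 fell and 6 rose, where 2.39% of all genes tested fell and 5.78% rose, and the median was -0.18. With EIF2A, 9 fell and 11 rose, where 3.94% of all genes tested fell and 6.55% rose, and the median was -0.07. All 6 that rose with GFP were core subunits (Sdha, Ndufs1, Uqcrc1, Uqcrc2, Atp5a1 and Atp5b), and these also rose with EIF2A, where 9 of the 11 were core subunits. In complex IV 5 members fell in each construct and none rose. Replicate numbers are shared between the times of a construct. Deviations of same-numbered libraries correlated at 0.51 to 0.93 over all libraries, but at -0.03 to 0.31 within replicates 2 to 4. The pairing thus rests on replicate 1. With the replicate number as a block, 48 fell and 8 rose with GFP (21.6% and 22.9% of genes tested), and 26 fell and 18 rose with EIF2A (23.3% and 21.9%). Without replicate 1 the counts were 44 lower and 9 higher (18.2% and 21.2%) and 20 lower and 20 higher (21.8% and 20.2%).

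The count at 1 h depended on single libraries. With GFP it lay at 3 or 4 members lower without any 1 library of GFP at 0 h or replicate 2, 3 or 4 at 1 h, and at 15 without replicate 1 of GFP at 1 h. With EIF2A it was 14 without replicate 1 at 0 h and 5 without replicate 4 at 0 h. The count of higher members with GFP, 6 with all libraries, was 4 or 5 without any 1 of the libraries compared. Ndufs1 lost its call without GFP replicate 3 at 0 h or replicate 2 or 3 at 1 h (adjusted p = 0.0543 to 0.0556). From 1 to 3 h, 29 members fell and 1 rose with GFP (4.28% and 5.49% of genes tested), and 47 fell and 1 rose with EIF2A (6.62% and 8.28%). The 1 that rose was Ndufa4l2 in both (log2 fold change 1.35 ± 0.41 and 2.04 ± 0.41), and its GFP call (adjusted p = 0.0408) was lost without replicate 2, 3 or 4 at 1 h or replicate 1, 2 or 4 at 3 h (adjusted p = 0.0765 to 0.123). With the block these counts were 69 lower and 1 higher (24.5% and 25.2%) and 72 lower and 2 higher (25.9% and 26.7%). Without replicate 4 of EIF2A at 1 h the 47 became 30. The comparisons of 1 h and 3 h with 0 h share their 0 h libraries.

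The members' share of all counts was summed per complex, so the most counted genes of a complex weigh most in it. With GFP complex IV held 0.342% ± 0.00293 of counts at 0 h, 0.282% ± 0.0116 after 1 h and 0.228% ± 0.00880 after 3 h (SD, n = 4). With EIF2A it was 0.369% ± 0.0125, 0.321% ± 0.0160 and 0.257% ± 0.0103. The 3 h share was 0.638 to 0.701 times the 0 h share of the same replicate number with GFP and 0.680 to 0.718 times with EIF2A, so it fell in all 8 pairs. The share of complex V with GFP was 0.490% at the start, 0.519% after 1 h and 0.440% after 3 h, and 0.538%, 0.610% and 0.502% with EIF2A, so it was higher at 1 h than at 0 h in both. Its most counted genes, Atp5b and Atp5a1, rose at 1 h. Of its 17 tested members, 14 had a log2 fold change below 0 at 1 h with GFP (median -0.15) and 9 with EIF2A (-0.02). The share of complex II with GFP was 0.0631%, 0.0682% and 0.0600% at 0, 1 and 3 h, where the rise of Sdha and the fall of its anchors are summed. The share of all members together at 3 h was 0.780 to 0.846 times that at 0 h with GFP and 0.836 to 0.863 times with EIF2A, pair by pair. With EIF2A it went from 1.66% ± 0.0936 to 1.41% ± 0.0966.

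**Figure D3:**
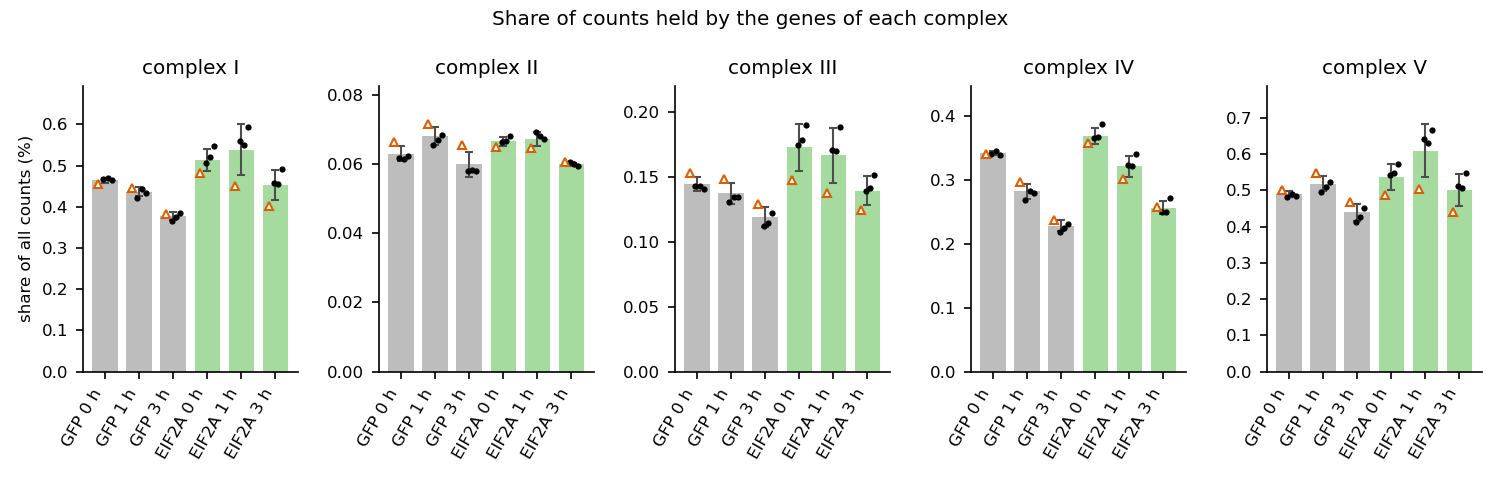
Share of all counts (%, vertical axis from 0, with its own scale per panel) held by the members of each complex in each group (horizontal axis). Bars are the mean of 4 libraries with SD, dots replicates 2 to 4 and open triangles replicate 1; complex IV falls stepwise to 0.228% with GFP and 0.257% with EIF2A, while complex V is higher at 1 h than at 0 h.

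Most members have short transcripts. Their median mRNA length was 760 bases (1623 for the core subunits, 680 for the others), against 2796 for all genes tested with a length. Short transcripts of other genes were also lower at 3 h: with GFP, other genes of at most 600 bases had a median log2 fold change of -0.34 and 26.9% fell, and the 25 members of that length had -0.65 and 19 fell. Between 600 and 1000 bases other genes had -0.29 and the 27 members -0.57, and between 1000 and 2000 bases -0.04 and, for 23 members, -0.23. With EIF2A the 3 pairs of medians were -0.35 and -0.69, -0.25 and -0.48, and -0.03 and -0.27. Between 2000 and 3000 bases the 4 members lay above the other genes, at 0.33 against 0.07 with GFP and 0.39 against 0.06 with EIF2A. The 1 member above 3000 bases measured -0.79 and -1.04, where other genes of that length had medians of 0.03 and 0.01. When the trend with length across all genes was removed before testing, 43 members fell with each construct, and the median with GFP was -0.33. Of all genes tested, 16.2% then fell with GFP and 18.2% with EIF2A. The part of length in the difference between core and other members was not tested.

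**Figure D4:**
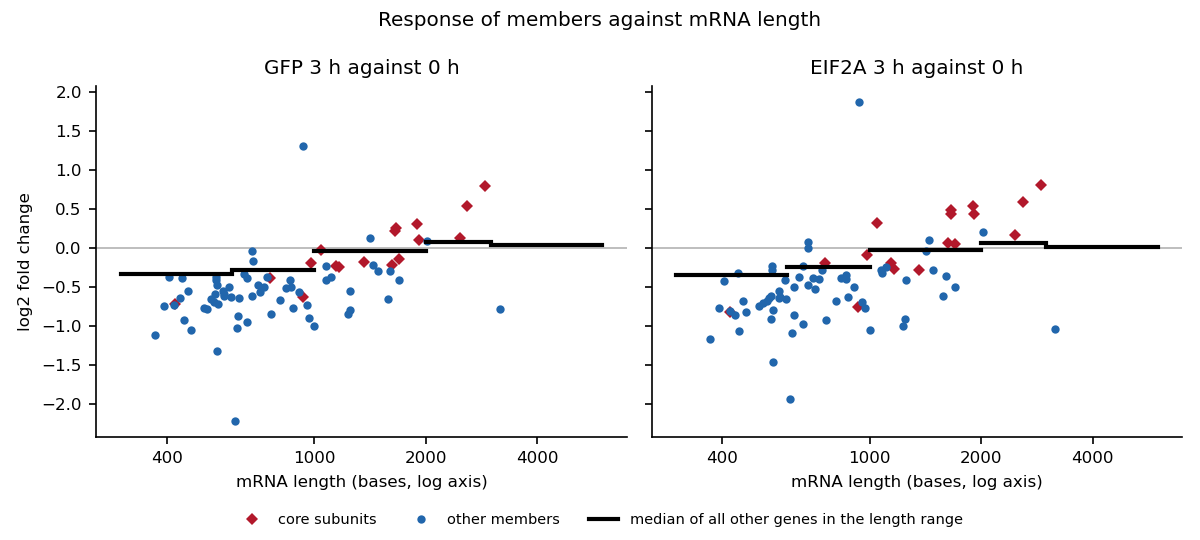
Log2 fold change at 3 h against 0 h (vertical axis) against mRNA length in bases (horizontal log axis) for the members with a length, with GFP (left) and EIF2A (right). Diamonds are core subunits, circles the other members, and black bars the median of all other genes in a length range, which lies at -0.34 (GFP) and -0.35 (EIF2A) up to 600 bases; most members lie below the bar of their range.

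The 2 constructs were then compared at each time. With all libraries, no member differed at 0 h (0.00727% of all genes tested were higher with EIF2A and 0.0145% lower) or at 3 h (0% in both directions). At an unadjusted p under 0.05 there were 37 and 43 of the 81 members, among 3006 and 2901 of the 13761 genes tested. DESeq2 called 10 members higher and 1 lower at 0 h (2.32% and 1.08% of genes tested) and 10 higher at 3 h (0.916%). At 1 h, 15 members were higher in the libraries labelled EIF2A and none lower, where 0.690% of all genes tested were higher and 0.334% lower. They were Ndufa3, Ndufa5, Ndufa10, Ndufa11, Ndufa13, Ndufb5, Ndufb7 and Ndufb8 of complex I, Uqcrq, Cox5b, and Atp5e, Atp5g1, Atp5h, Atp5j2 and Atp5k, with log2 differences of 0.30 to 1.01. Leaving out replicate 2, 3 or 4 of either construct at 1 h took the count to 0, and leaving out replicate 1 took it to 32 (GFP) or 46 (EIF2A). At 0 h and 3 h, leaving out replicate 1 of EIF2A gave 26 and 35 members higher and 5 and 1 lower, and at 1 h 1 was then lower.

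Without replicate 1 of all groups, most members were higher in the libraries labelled EIF2A. At 0 h 55 members were higher and 9 lower (31.9% and 32.9% of genes tested), at 1 h 65 and 4 (32.7% and 37.3%), and at 3 h 56 and 7 (32.5% and 35.1%), with median log2 differences of 0.28, 0.46 and 0.36. In replicate 1 the median difference of the members was -0.01, -0.11 and 0.04, and 54, 57 and 49 of 81 members had a sign opposite to replicates 2 to 4 (66.7%, 70.4% and 60.5%, where 70.1%, 72.3% and 70.4% of all genes did). Atp5e read 248.2, 253.0 and 250.3 CPM in GFP replicates 2 to 4 at 0 h and 521.0, 554.8 and 588.5 CPM in EIF2A, a log2 difference of 1.15, but replicate 1 read 284.2 and 283.2 CPM. Ndufa2, an accessory subunit of complex I, read 139.8, 146.8 and 142.9 CPM against 274.6, 297.4 and 320.2 CPM (1.05 ± 0.09), with 195.0 and 157.9 CPM in replicate 1. Cox7a1, the muscle-type isoform of a complex IV subunit, read 12.8, 11.7 and 12.2 CPM against 34.6, 38.8 and 39.3 CPM (1.61 ± 0.10), and in replicate 1 it read 82.2 CPM with GFP and 19.5 CPM with EIF2A. Core subunits were among the 9 that were lower at 0 h: the log2 difference was -0.52 for Uqcrc2, -0.51 for Ndufs1 and -0.41 for Atp5b, all with replicate 1 left out.

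**Figure D5:**
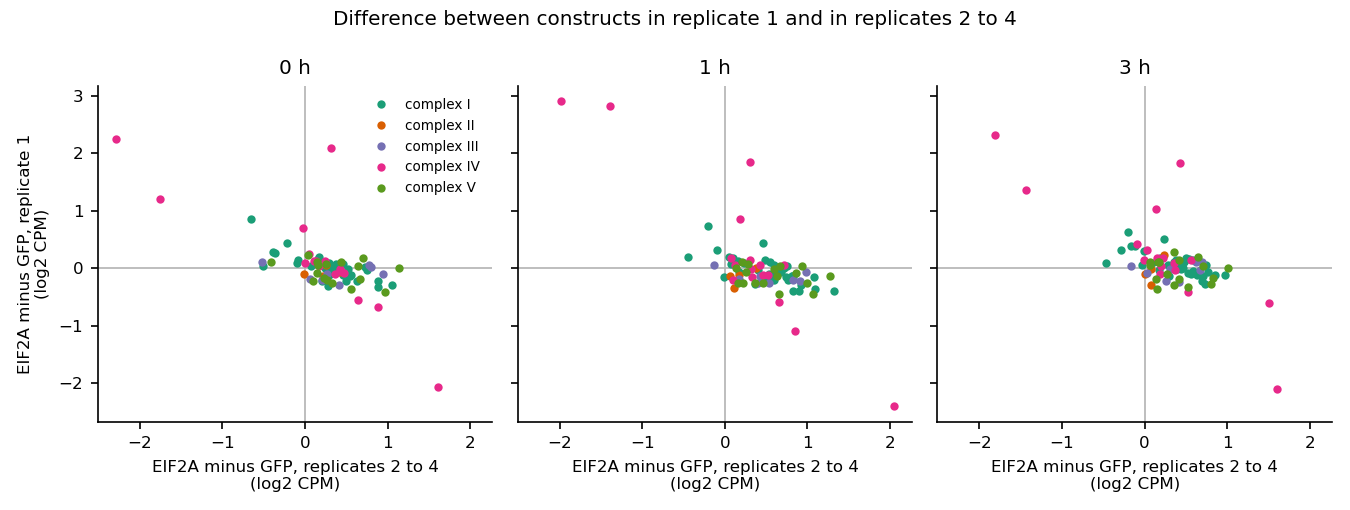
Difference between constructs (EIF2A minus GFP, log2 CPM) of each tested member in replicate 1 (vertical axis) against replicates 2 to 4 (horizontal axis) at 0, 1 and 3 h, coloured by complex. Most points lie to the right of 0, with medians of 0.29 to 0.46 in replicates 2 to 4, and around or below 0 in replicate 1; Cox7a1 lies at the lower right of each panel.

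The differences between constructs moved with transcript length. Across all genes Spearman's rho between the difference and mRNA length was -0.36, -0.41 and -0.38 at 0, 1 and 3 h (13257 genes, which share libraries and are not independent). Removing that trend took the median of the members from 0.20, 0.35 and 0.28 to 0.05, 0.12 and 0.08 and the calls at 1 h from 15 to 0. Among all genes tested it also took the calls at 1 h to 0%, from 0.690% higher and 0.334% lower, so the 0 is not particular to the members. Ins1, an insulin gene, differed between constructs too: it averaged 8155.2 CPM with GFP and 22812.1 CPM with EIF2A in replicates 2 to 4 at 0 h, and 14505.7 and 7262.6 CPM in replicate 1. The part of either in the members' difference was not tested. The response to thapsigargin did not differ between constructs for any member with all libraries (0% of all genes tested at 1 h and at 3 h), with 4 and 3 members at an unadjusted p under 0.05 (72 and 146 of the genes tested) and none called by DESeq2. Without replicate 1, 12 members responded more positively with EIF2A at 1 h (0.488% of genes tested higher, 0.328% lower), and at 3 h 6 did so and 2 the opposite (1.55% and 2.57%).

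Genes that serve the complexes without being part of them were taken as 4 lists. Of 49 tested assembly factors, 12 rose and 11 fell at 3 h with GFP (24.5% and 22.4%, where 18.4% of all genes tested rose and 14.6% fell) and 15 rose and 11 fell with EIF2A (30.6% and 22.4%, where 19.6% rose and 16.6% fell), with medians of 0.03 and 0.15. Sco1, a copper chaperone of complex IV, rose by a log2 fold change of 0.99 ± 0.10 with GFP (adjusted p = 1.81e-07) and 0.90 ± 0.10 with EIF2A (adjusted p = 4.92e-07). Cox17, which hands copper to it, fell by 0.80 and 0.88 on the log2 scale, and Cox14, a small assembly factor of the same complex, by 0.54 and 0.59. Of 16 tested carriers and coenzyme Q genes, 4 rose and 3 fell with GFP and 5 and 4 with EIF2A, with medians of -0.01 and -0.02. Pdss1, which starts the coenzyme Q side chain, rose by 0.93 ± 0.14 and 1.04 ± 0.14, and Etfdh, which feeds electrons to ubiquinone, by 0.51 ± 0.07 and 0.64 ± 0.07. Of 18 tested genes of the tricarboxylic acid cycle, 3 rose and 1 fell with GFP (16.7% and 5.56%) and 4 and 2 with EIF2A (22.2% and 11.1%), with medians of 0.08 and 0.05. Dld, the dihydrolipoamide dehydrogenase, rose by 0.58 ± 0.18 and 0.62 ± 0.18. Of 13 regulators of mitochondrial biogenesis, 6 rose and 1 fell in each construct (46.2% and 7.69%), with medians of 0.21 and 0.24. They included Nrf1 (0.46 ± 0.07 and 0.47 ± 0.07), the factor whose element was searched above, Tfam (0.49 ± 0.08 and 0.46 ± 0.08), which packages mitochondrial DNA, and Polrmt (0.80 ± 0.16 and 0.85 ± 0.17), the mitochondrial RNA polymerase. At 1 h the assembly factors numbered 2 higher and 2 lower with GFP and 3 and 4 with EIF2A, and the regulators 3 higher and 0 lower in each. Of all genes tested, 5.78% rose and 2.39% fell at 1 h with GFP, and 6.55% and 3.94% with EIF2A.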

How the data were processed

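The authors' deposited file is 1 table of raw read counts per gene for 24 libraries of stranded polyA RNA from MIN6 cells. Per the submitters' processing notes, bcl2fastq, STAR and the mm10 build were used; versions, the counter, its strand setting and the annotation were not given in the sources used here. Lines that name no gene held 11.3% to 18.4% of the counts and were left out, and the libraries then held 10.52 M to 22.22 M counts.

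From these counts, genes were filtered with filterByExpr (minimum count 10), scaled by TMM and tested with edgeR 4.0.16 (R 4.3.3, limma 3.58.1) as 6 group means over all 24 libraries by the quasi-likelihood F test, robust, with 18 residual degrees of freedom. Benjamini-Hochberg adjustment ran over all 13761 genes tested, and a gene was called at an adjusted p under 0.05. SE is the log2 fold change divided by the square root of F. The test was tried on simulated data with known changes, drawn independently per library and without a shift of replicate 1. That trial does not show how the test performs on these libraries. Replicate numbers pair libraries across times of a construct: over all libraries the deviations of same-numbered libraries correlated at 0.51 to 0.93 (24 pairs), so the block of replicate within construct was fitted as well for times and for the response between constructs (12 residual degrees of freedom). Between constructs they correlated at -0.66 to -0.16 (36 pairs) and do not pair; for the difference between constructs the block was the replicate number shared by both. Within replicates 2 to 4 the correlations were -0.03 to 0.31 (18 pairs of the same construct), so the pairing rests on replicate 1.

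The alternatives were DESeq2 1.42.0, DESeq2 size factors, library totals, no filter, the block, a loess trend with mRNA length removed, the block with that trend, replicate 1 left out and each library left out. The block without replicate 1, the length trend without replicate 1 and an earlier length definition (the longest transcript at ties, later replaced by the best supported and then the shortest) were added after seeing the data. Values of a few genes are not reported here. The members and lists were chosen with earlier results of these data known. Any member could be named; values per library were set for the 3 lowest and the 1 highest called member of each complex with at least 5 CPM, all of complex II, the Ndufa4 paralogs and the Atp5g genes, and up to 4 genes of each list with the smallest p. Promoters and transcripts came from RefSeq and the annotation of GRCm38.p6.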

Additional observations from a re-analysis of the deposited data

Results flagged for a closer look

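In 23 of 180 groups of 4 libraries looked at (levels and shares of the members given in full), 1 library lay far from the other 3. Chance would give about 5%, or 1 in 20, if the groups were independent. They share the same 24 libraries, so 1 odd library is counted many times and the 23 cannot be set against that share. In 22 of the 23 groups the library apart was replicate 1. With GFP this library was high for Uqcrh (273.6, 206.8 and 129.1 CPM at 0, 1 and 3 h), Sdhd (243.5, 202.1 and 143.9 CPM), Atp5g3 (519.6, 493.7 and 378.0 CPM) and Sdhc (194.8 CPM at 0 h and 124.4 CPM at 3 h). It was also high for Atp5e at 0 h (284.2 CPM), for the share of complex III at 0 h (0.153%, others 0.141% to 0.143%) and for the share of complex II at 3 h (0.0656%, others 0.0580% to 0.0583%). It was low for Ndufa4 (173.7 CPM) and Atp5g2 (35.6 CPM) at 0 h. With EIF2A it was high for Ndufs1 (89.8 CPM at 0 h, 138.4 CPM at 1 h), Uqcrc2 at 0 h (154.8 CPM), and Ndufa4 (111.5 CPM), Cox5a (237.3 CPM) and Sdhd (133.1 CPM) at 3 h. The remaining library was EIF2A replicate 4 at 3 h, low for Uqcrb at 77.9 CPM against 101.7 to 105.5 CPM. Replicate 1 is also the one in which Eif2a goes against the labels.

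Without replicate 1, the response to thapsigargin differed between constructs by edgeR's test of the interaction for 12 members at 1 h, all more positive with EIF2A, of which 11 are given here. The log2 differences of response were 0.55 for Atp5b (adjusted p = 0.00184), 0.55 for Ndufa9 (0.00208), 0.52 for Ndufs3 (0.00184), 0.48 for Ndufv1 (0.0192) and 0.41 for Ndufc2 (0.00370). They were 0.39 for Uqcrc2 (0.0373), 0.34 for Atp5h (0.0144), 0.32 for Ndufv2 (0.0194), 0.31 for Ndufa10 (0.0496), 0.28 for Ndufa12 (0.0451) and 0.26 for Ndufb5 (0.0387). At 3 h the difference was 0.56 for Ndufa9 (3.57e-04), 0.48 for Atp5b (0.00101), 0.41 for Ndufs3 (0.00265), 0.36 for Uqcrc2 (0.0244) and 0.27 for Ndufv2 (0.0169), and it was -0.34 for Sdhc (0.0118) and -0.22 for Sdhd (0.0399). With all 24 libraries no member passed this test at either time.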

How the results depend on the processing

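None of the 105 values given per gene changed direction under any setting run on them. The median of the members changed sign at 1 h with EIF2A (-0.07 to 0.02 without EIF2A replicate 4 at 0 h, to 0.07 without EIF2A replicate 1 at 1 h), and that of the interaction at 3 h (0.04 to -0.01 without EIF2A replicate 4 at 3 h). Counts are members called, and a count given without the share of all genes tested, here or above, is not a result about the members. DESeq2 gave 15 lower at 1 h with GFP, and between constructs 10 higher and 1 lower at 0 h, 44 higher at 1 h and 10 higher at 3 h; its size factors within edgeR changed no count by more than 1.5 times. Without the filter, 4 fell at 1 h with GFP, 0 rose from 1 to 3 h with GFP and 0 differed between constructs at 1 h. With the replicate block, 48 fell at 1 h and 7 rose at 3 h with GFP and 69 fell from 1 to 3 h. With EIF2A 18 rose and 26 fell at 1 h and 2 rose and 72 fell from 1 to 3 h. Between constructs 9 were higher and 2 lower at 0 h (5.27% and 4.42% of genes tested). At 1 h 42 were higher (10.3% of genes tested). At 3 h 14 were higher, as were 551 of the 13761 genes tested. Replicate numbers do not pair between constructs. No other count moved by over 1.5 times with the block. With library totals alone, which shift the median of all genes by 0.12 (GFP) and 0.15 (EIF2A) at 3 h and by 0.11 and 0.17 from 1 to 3 h, 17 fell from 1 to 3 h with GFP; with EIF2A 11 rose at 3 h (median -0.26), 26 fell from 1 to 3 h (median -0.26), and 9 were higher than with GFP at 1 h.

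With the length trend removed, 3 fell at 1 h with GFP and 4 with EIF2A (2.49% and 4.29% of genes tested). The 3 h median with GFP was -0.33, the medians between constructs were 0.05, 0.12 and 0.08, and 0 were called between constructs at 1 h (0% of genes tested). With the earlier length definition the values were 3, 3, -0.32, 0.04, 0.09, 0.07 and 0. With the block and the trend removed, 10 rose and 31 fell at 1 h with GFP (3 h median -0.33) and 67 fell from 1 to 3 h; with EIF2A 21 rose and 22 fell at 1 h, 11 rose at 3 h, and 2 rose and 72 fell from 1 to 3 h; between constructs 1 was higher and 3 lower at 0 h (median 0.06), 1 lower at 1 h (median 0.12) and 1 higher at 3 h (median 0.08). With replicate 1 left out and the trend removed, 11 rose and 23 fell at 1 h with GFP (18.8% and 20.4% of genes tested, 3 h median -0.36). From 1 to 3 h 64 fell with GFP (22.9%). With EIF2A 22 rose and 19 fell at 1 h (19.7% and 22.2%) and 12 rose at 3 h (29.1%). From 1 to 3 h 2 rose and 71 fell with EIF2A (22.1% and 25.5%). Between constructs 33 were higher and 18 lower at 0 h (38.0% and 24.1% of genes tested). At 1 h the counts were 45 and 14 (39.1% and 27.2%, median 0.17), and at 3 h 33 and 17 (38.8% and 25.7%, median 0.09). The response differed upwards for 7 members at 1 h (0.328%) and for 6 (2 downwards) at 3 h (1.82% upwards and 2.56% downwards). With the block and replicate 1 left out, 10 rose and 54 fell at 1 h with GFP, 8 rose at 3 h and 72 fell from 1 to 3 h; with EIF2A 27 rose and 27 fell at 1 h, 13 rose at 3 h, and 2 rose and 73 fell from 1 to 3 h; between constructs 60 were higher and 10 lower, 68 and 5, and 58 and 7, and the response differed upwards for 38 (1 downwards) at 1 h and 14 (6 downwards) at 3 h.

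Leaving out 1 library at a time, or replicate 1 of every group, gave these ranges of higher and lower members: with GFP 4 to 9 and 3 to 44 at 1 h, 2 to 5 and 45 to 66 at 3 h, and 0 to 1 and 20 to 64 from 1 to 3 h; with EIF2A 10 to 20 and 5 to 20 at 1 h (median -0.13 to 0.07), 5 to 13 and 41 to 59 at 3 h, and 1 and 30 to 73 from 1 to 3 h; between constructs 0 to 55 and 0 to 9, 0 to 65 and 0 to 4, and 0 to 56 and 0 to 7 at 0, 1 and 3 h; for the response 0 to 12 and 0 at 1 h and 0 to 6 and 0 to 2 at 3 h. Of the values given per gene, 24 lost their call with the length trend removed, 14 with library totals and 15 without the filter. The cause was not tested for any of these. Depth limits the scarce members, such as Ndufa4l2 and Cox7b2.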
